A study of Mus musculus with 35 samples.

Results

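The genes described here encode the contractile apparatus of smooth muscle and its master coactivator. The set held 10 genes picked by name (Acta2, Tagln, Myh11, Cnn1, Mylk, Actg2, Lmod1, Smtn, Des and Myocd) among 54532 genes in whole-lung RNA-seq tables of 34 mouse libraries. Mice were wildtype B6/129SJ2 (Control, 12 libraries), carried the global caveolin-1 null allele Cav1(tm1Mls/)J (Cav1-KO, 11 libraries), or carried the null allele together with caveolin-1 put back in endothelial cells (Cav1-RC, 11 libraries). Females and males of each genotype had breathed normal air (normoxia) or 10% oxygen (hypoxia) for 6 weeks, which gave 12 groups. A group held 3 libraries, or 2 in the case of normoxic females of either mutant line. All mice were adults of at least 3 months. The promoter that drives caveolin-1 in Cav1-RC is not given in the sources used here.

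Smooth muscle cells surround the pulmonary arteries, veins and airways, and in chronic hypoxia small pulmonary arteries are known to gain a muscular coat. In these cells smooth muscle actin (Acta2, Actg2) and smooth muscle myosin (Myh11) slide along each other once the light chain kinase Mylk has phosphorylated the myosin light chain. Calponin (Cnn1), transgelin (Tagln) and smoothelin (Smtn) bind actin, leiomodin (Lmod1) nucleates actin filaments, and desmin (Des) forms the intermediate filaments. Myocardin (Myocd) is the coactivator of serum response factor, which binds the CArG box in the promoters of many of these genes. Because whole lung was sequenced, a lower level of these transcripts cannot be told apart from fewer smooth muscle cells.

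The sequences before the transcription starts are shown for Acta2, Lmod1 and Cnn1, because 2 of them hold near matches to the CArG box and Cnn1, which holds none, stood out among the values below. The 250 bases before the start come from RefSeq (GRCm38.p6), which gave a window for 6 of the 10 genes, and are written 5′ to 3′ on the gene's strand, with stretches of 10 letters that differ from the CArG box by 1 letter in capitals. The windows lie at chr19:34255374-34255623 (minus strand) for Acta2, at chr1:135324563-135324812 (plus strand) for Lmod1 and at chr9:22099003-22099252 (plus strand) for Cnn1.
Acta2: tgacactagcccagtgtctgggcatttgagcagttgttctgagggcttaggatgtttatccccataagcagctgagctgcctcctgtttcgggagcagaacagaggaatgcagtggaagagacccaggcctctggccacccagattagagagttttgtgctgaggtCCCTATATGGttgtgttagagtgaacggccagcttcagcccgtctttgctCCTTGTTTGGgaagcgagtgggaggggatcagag
Lmod1: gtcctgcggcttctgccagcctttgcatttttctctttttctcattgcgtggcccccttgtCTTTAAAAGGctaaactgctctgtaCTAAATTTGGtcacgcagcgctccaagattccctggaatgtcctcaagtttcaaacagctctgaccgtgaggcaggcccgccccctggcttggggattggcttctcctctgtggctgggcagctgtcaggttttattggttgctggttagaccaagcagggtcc
Cnn1: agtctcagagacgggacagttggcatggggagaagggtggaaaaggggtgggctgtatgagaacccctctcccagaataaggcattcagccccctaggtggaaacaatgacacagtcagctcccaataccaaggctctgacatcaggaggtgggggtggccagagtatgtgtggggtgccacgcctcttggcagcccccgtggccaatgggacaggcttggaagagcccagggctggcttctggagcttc
The matches in Acta2 began 84 and 34 bases before the start, and those in Lmod1 189 and 164 bases before it. None of the 6 windows held an exact CArG box, which 1.47% of 32851 mouse promoter windows held. At least 1 match with up to 1 mismatch was found in 18.6% of all windows and at least 2 in 2.96%, with both strands searched, so 1 such match is common. A match describes letters in a window and not a bound site.

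Total counts per library ran from 12425535 to 33343006, with a median of 18015172.5. Cav1 lay between 284 and 394 FPKM in Control, between 0.461 and 1.13 in Cav1-KO and between 0.423 and 1.89 in Cav1-RC. The Cav1-RC lungs thus could not be told from Cav1-KO by this transcript (log2 difference 0.16 ± 0.22 SE over the 4 strata, adjusted p = 0.602, edgeR), and whether reads of the reconstituted copy could be counted is not given. They are called "labelled Cav1-RC" below. Sex-linked genes went against the label in 3 libraries, namely male Control hypoxia replicate 2 and male Cav1-RC normoxia replicates 1 and 2. Female Cav1-KO hypoxia replicate 2 had both kinds of reads, with 710 CPM (counts scaled to library size) of Xist and 17.4 CPM over 4 Y-linked genes. Of the 34 mice, 12 also appear by animal number in the study's western blot source data, here called the blot list. The list held every hypoxic Cav1-KO mouse, every hypoxic male Control, and 1 mouse of each of 3 female groups (normoxic Control, hypoxic Control and normoxic labelled Cav1-RC).

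Acta2 was the most abundant of the 10 transcripts in each of the 34 libraries. Levels are given as FPKM, fragments scaled to transcript length and to library depth, which the authors deposited and which can be compared between genes. Acta2 (ENSMUSG00000035783, chr19:34241090-34255336, GRCm38) had a median of 86.9 FPKM over the 34 libraries, with a range from 59.7 to 215. Des (chr1:75360329-75368579) had the next median, 40.3 FPKM, and lay below Acta2 in 34 of 34 libraries. Mylk (chr16:34745210-35002420) followed with 25.9, Myh11 (chr16:14194535-14291372) with 20.8, Smtn (chr11:3517523-3540612) with 19.0 and Cnn1 (chr9:22099216-22109630) with 17.0 FPKM.

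The order of these 4 did not hold in every lung. Mylk exceeded Myh11 in 27 of 34 libraries, Myh11 exceeded Smtn in 23 and Smtn exceeded Cnn1 in 19, so Smtn and Cnn1 had no fixed order. Actg2 (chr6:83512905-83536265) had a median of 13.3 FPKM and lay below Cnn1 in 32 libraries. Lmod1 (chr1:135324807-135368065) had 3.41 and Tagln (chr9:45929619-45936058) 1.86 FPKM. Myocd (chr11:65176561-65269989) was the lowest in each library, with a median of 0.371 FPKM and 3 to 111 counts, and its values carry large counting error.

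Of the exonic bases of Tagln, 67.9% are shared with genes on the opposite strand, 1241 of 1988 bases with Gm48529 and 108 with Pcsk7. The level of Tagln and its place in the order above are uncertain on that account. The authors counted with featureCounts at default parameters, which ignore strand. The same share was 16.3% for Smtn, 6.85% for Mylk and 5.86% for Des, and 0 for the other 6 genes. Acta2 and Actg2 are near copies of other actins, so reads shared between them are uncertain.

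**Figure D1:**
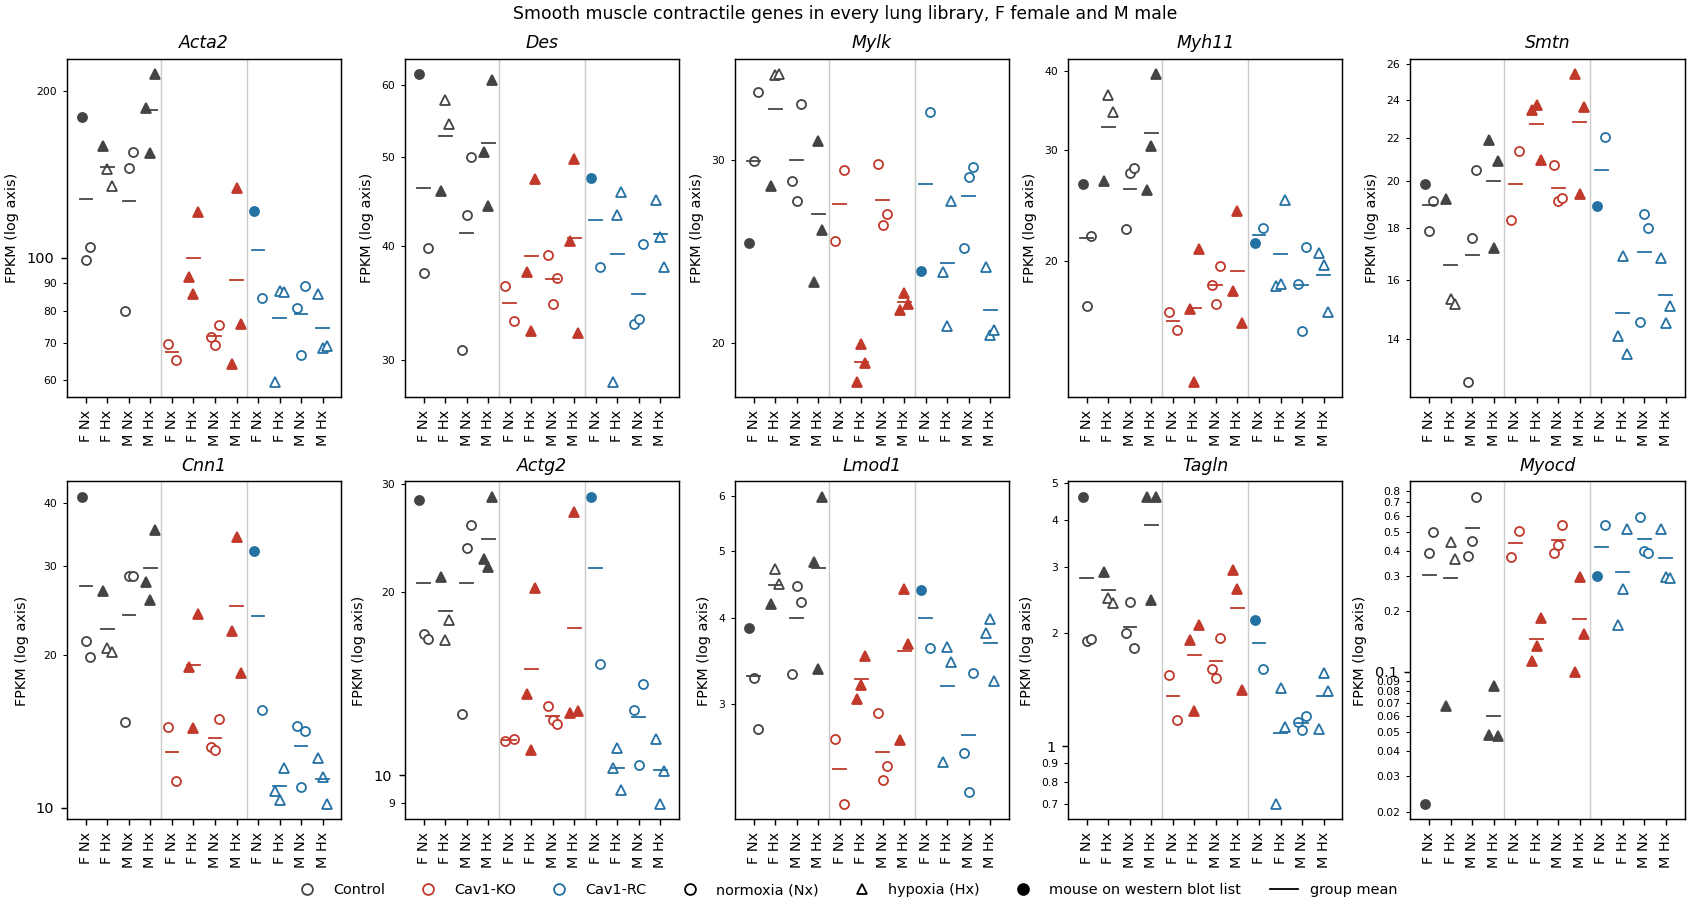
Level of each of the 10 genes in every library (FPKM, log axis), by genotype (color), sex and oxygen (circles normoxia, triangles hypoxia); horizontal bars are group means and filled symbols are mice on the western blot list. Control libraries range from 80.2 to 215 FPKM for Acta2, overlapping Cav1-KO, which reaches 133, and labelled Cav1-RC, which reaches 122, and Myocd is low in filled symbols.

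The 3 female groups that held both listed and other mice allowed a comparison within 1 genotype, sex and oxygen level. Acta2, Tagln, Cnn1 and Actg2 were higher in the listed mouse than in every other mouse of its group in 3 of 3 groups, while Mylk and Myocd were lower in 3 of 3. Of all genes 24.5% were likewise higher and 23.8% lower in 3 of 3, so such a pattern was common, and 4 and 2 of 10 members are read against those shares. In female Control normoxia, Cnn1 was 41.0 FPKM in the listed mouse and 21.4 and 19.8 in the others, and in female labelled Cav1-RC normoxia it was 32.2 against 15.6. Myocd was 0.0218 FPKM in the listed female Control normoxia mouse against 0.389 and 0.496, and 0.0672 against 0.443 and 0.366 in female Control hypoxia. On the log2 scale the listed mice were lower for Myocd than the mean of the others by -4.34 and -2.59 in these groups and by -0.86 in female labelled Cav1-RC normoxia (0.299 against 0.542 FPKM). With 1 listed mouse per group no test was made. Fits with a term for the list, given below, estimate that term from these 3 female groups alone. None of the 3 is male or Cav1-KO. In other groups the term carries this female difference over and cannot separate the list from oxygen or genotype.

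The same listed mice were low in markers of heart muscle, which lines the pulmonary veins of mice and also uses Myocd. The summed FPKM of 20 cardiac genes was 228.2, 99.8 and 168 in the 3 listed mice, against 410 to 602, 469 to 492 and 514 in the other mice of their groups, and none of the 20 genes was at 0 in all libraries. Over the 34 libraries the log2 level of Myocd and of this sum had a Pearson's r of 0.73, and 0.58 once group means were removed, values that share library and depth. The summed FPKM of 7 lung epithelial markers was higher in the listed mouse each time, at 144729, 113946 and 163482 against at most 93492, 81988 and 55276 in the others. Most of this sum is the club cell secretory gene Scgb1a1, at 26998 to 143067 FPKM over the libraries, so it does not describe the 7 markers alike. Over the 34 libraries this sum had an r of 0.75 with Cnn1 and 0.65 with Acta2. The part of either marker list in the differences of the 10 genes was not tested.

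**Figure D2:**
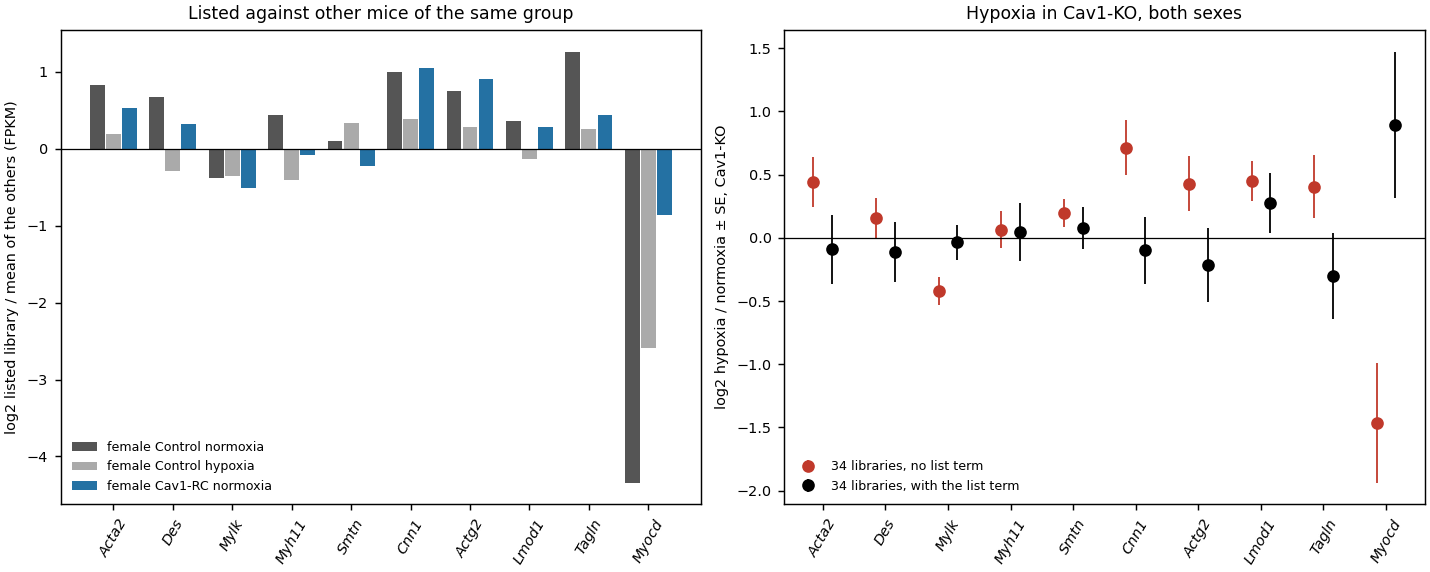
Left, log2 ratio of the listed library to the mean of the other libraries of its group (FPKM) in the 3 groups that hold both kinds; right, log2 hypoxia over normoxia in Cav1-KO for both sexes (± SE) in a fit over 34 libraries without (red) and with (black) a term for the blot list. Bars for Cnn1 and Actg2 lie above 0 and those for Mylk and Myocd below 0 in 3 of 3 groups, and the Cav1-KO oxygen effects of Cnn1 and Myocd move to the other side of 0 with the term.

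The first question was whether 6 weeks of hypoxia changed the contractile genes of Control lungs. A gene was called when its log2 fold change exceeded 1 in size and its adjusted p (edgeR quasi-likelihood test, Benjamini-Hochberg over all genes tested) was under 0.05. In female Controls 0 of the 10 genes were called, as were 0.0175% of all genes, at a median log2 change of 0.03. Myh11 was 26.8, 36.6 and 34.5 FPKM in hypoxia and 26.5, 17.0 and 22.0 in normoxia, so the groups did not overlap (log2 change 0.56 ± 0.23, adjusted p = 0.871). Lmod1 was also higher without overlap, at 4.18 to 4.70 against 2.76 to 3.86 FPKM (0.41 ± 0.21, adjusted p = 0.871), which makes 2 of 10 members against 4.79% of all genes. Without the listed mouse on each side, the log2 change of Myh11 was 0.83 (adjusted p = 0.0179, edgeR) and that of Des 0.50 (adjusted p = 0.0403), both short of the fold threshold. The share of all genes passing in that fit was not counted.

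In male Controls Myocd was the only one of the 10 that was called, and it fell. It read 0.0485, 0.0843 and 0.0477 FPKM in hypoxia, on 6 to 8 counts, and 0.376, 0.45 and 0.745 in normoxia. The ranges did not overlap, and the log2 change was -3.15 ± 0.42 (adjusted p = 0.0075, edgeR), in a comparison that called 6.36% of all genes. The call was lost when hypoxic replicate 3 was left out. The summed cardiac markers ran from 116 to 146 FPKM in these hypoxic males and from 332 to 816 in the normoxic ones. All 3 hypoxic mice and no normoxic mouse were on the blot list, so the list and hypoxia cannot be told apart, and a fit with a term for the list gave -0.78 (adjusted p = 0.583).

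By CPM, Acta2 and Tagln were also higher in every hypoxic than in every normoxic male Control, without passing the test. That is 2 of 10 members against 21.1% of all genes. Tagln was 4.60, 2.45 and 4.60 FPKM against 2.00, 2.41 and 1.82, a log2 difference of 0.92 ± 0.29 (adjusted p = 0.0642, edgeR). Without replicate 2 of the hypoxic males, whose sex-linked genes go against its label, this was 1.17 (adjusted p = 0.0169), and Tagln was then called. Acta2 was 187, 155 and 215 against 80.2, 145 and 155 FPKM (0.55 ± 0.25, adjusted p = 0.148). By FPKM its ranges overlapped, the lowest hypoxic value being 154.96 and the highest normoxic one 155.15. With both sexes in 1 fit 0 of the 10 genes and 0.846% of all genes were called, and 9 of the 10 differences lay above 0, with a median of 0.16 against 0.00 over all genes.

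In Cav1-KO lungs hypoxia came with less Myocd in both sexes. In females Myocd was 0.113, 0.134 and 0.186 FPKM in hypoxia and 0.375 and 0.501 in normoxia (log2 change -1.58 ± 0.35, adjusted p = 0.0128, edgeR), where 13.3% of all genes were called. In males it was 0.0993, 0.296 and 0.154 against 0.389, 0.426 and 0.542 (-1.37 ± 0.39, adjusted p = 0.0153), where 17.7% of all genes were called. Both calls were lost in the fit over 34 libraries without the list term and in some fits that left out 1 library. No hypoxic value reached a normoxic one in either sex, as for 29.9% of all genes in the lower direction in females and 29.9% in males. The summed cardiac markers ran from 252 to 502 FPKM in hypoxic and from 377 to 456 in normoxic females, and from 126 to 388 and from 416 to 513 in males, and their part in the difference was not tested. With both sexes together Myocd was again the only one of the 10 called (-1.47 ± 0.28, adjusted p = 0.000706), beside 17.6% of all genes.

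Cnn1, Acta2, Lmod1 and Smtn were higher in hypoxic Cav1-KO, below the fold threshold. With both sexes together their log2 changes were 0.71 ± 0.17 (adjusted p = 0.00393, edgeR), 0.44 ± 0.17 (0.0417), 0.44 ± 0.14 (0.0152) and 0.19 ± 0.08 (0.0472), and Mylk was lower by -0.43 ± 0.06 (0.000138). By the adjusted p alone 6 of the 10 genes passed, against 61.7% of all genes, so the share of members was near the background. Cnn1 was 22.3, 34.2 and 18.5 FPKM in hypoxic males and 13.18, 12.99 and 14.97 in normoxic ones. The Mylk values of hypoxic Cav1-KO, 18.4 to 22.4 FPKM, all lay below the normoxic values, 25.1 to 29.7, so with Myocd 2 of 10 members were lower without overlap in each sex, against the same 29.9% of all genes.

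Every hypoxic Cav1-KO mouse was on the blot list and no normoxic one with a group in the labels was, so these differences and the list cannot be told apart. Within groups that held both kinds of mice, Acta2 and Cnn1 were higher and Mylk and Myocd lower in the listed mouse in 3 of 3, while Lmod1 and Smtn were higher in 2 and lower in 1. In a fit over 34 libraries with a term for the list, the log2 change of Cnn1 in both sexes was -0.10 (adjusted p = 0.911, edgeR), that of Mylk -0.03 (0.944) and that of Myocd 0.89 (0.504), and none of the 10 genes passed by the adjusted p alone.

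Other genes of the contractile apparatus were counted in the same comparison of Cav1-KO. Of 25 partners 1 was called higher and 7 lower, with a median log2 change of -0.19, and of 20 regulators 0 were called higher and 3 lower, with a median of -0.32, beside the 17.6% of all genes. Among the lower genes was Vcl, which anchors actin at adhesions (-3.26). Of 14 fibroblast markers 0 were called higher and 5 lower, 13 differences lay below 0 and the median was -0.89. Their summed level ran from 1077 to 1411 FPKM in hypoxic and from 1507 to 1741 in normoxic Cav1-KO, and its part in the lower genes was not tested. Every hypoxic Cav1-KO mouse and no normoxic one with a group was listed, so list and hypoxia cannot be told apart here. The summed regulators were lower in the listed mouse of each mixed female group (295, 358 and 301 FPKM against at least 390, 499 and 490). The summed partners were lower in hypoxic Control and normoxic labelled Cav1-RC (1030 and 868 against at least 1227 and 1058). They were higher in normoxic Control (1165 against at most 1045). With both sexes together 0 of the 25 partners and 0 of the 20 regulators were called in Control, beside 0.846% of all genes, and 0 and 0 in labelled Cav1-RC, beside 1.22%. In male Control alone 2 of the 25 partners were called lower, among them Vcl (-2.63), beside 6.36% of all genes. There too every hypoxic and no normoxic mouse was listed.

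Hypoxia gave no called gene in lungs labelled Cav1-RC, among the 10, in either sex. The background was 0.0285% in females, 2.27% in males and 1.22% with both sexes together. In males, where no mouse was listed, the median log2 change of the 10 genes was -0.10, and Mylk was 23.7, 20.4 and 20.6 FPKM in hypoxia against 24.7, 28.9 and 29.6 in normoxia, without overlap (-0.35 ± 0.10, adjusted p = 0.0613, edgeR), the 1 such member of 10 against 15.4% of all genes in the lower direction. In females all 10 differences lay below 0, and Tagln, Cnn1, Actg2 and Smtn were lower without overlap, 4 of 10 members against 9.81% of all genes, with Cnn1 at -1.13 ± 0.31 (adjusted p = 0.603) and Actg2 at -1.11 ± 0.30 (adjusted p = 0.58). The size of the Cnn1 and Actg2 differences leaned on the listed normoxic mouse, at 28.6 FPKM for Actg2 against 15.2 in its partner. Without the listed mouse they were -0.50 for Cnn1 and -0.58 for Actg2. The partner alone still lay above every hypoxic value of the 4 genes. For Smtn the listed mouse was the lower of the pair, at 18.9 against 22.1 FPKM. With both sexes Actg2 was lower by -0.70 ± 0.16 (adjusted p = 0.0497, edgeR), short of the fold threshold. Without the listed mouse this was -0.42 (adjusted p = 0.102), and without the 2 normoxic males whose sex-linked genes go against the label -0.78 (adjusted p = 0.263). The adjusted p was also above 0.05 with DESeq2 size factors, with a replicate block and in the 34-library fits with and without the list term, and below it with the DESeq2 test and with no filter on low counts.

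**Figure D3:**
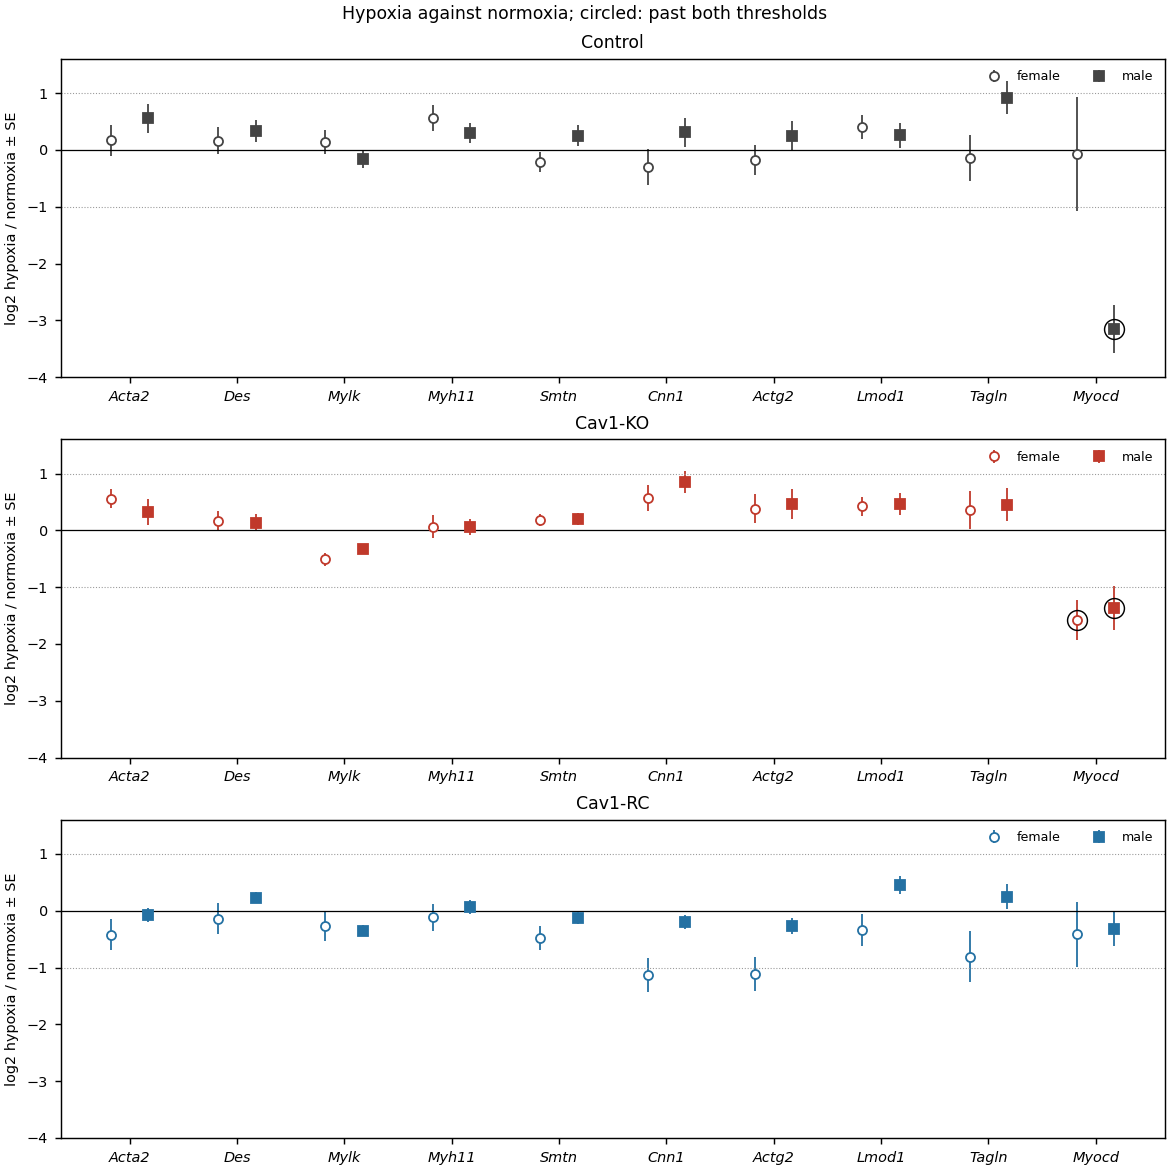
Log2 fold change of hypoxia over normoxia (± SE, edgeR) for each gene, females as open circles and males as filled squares, 1 panel per genotype; black rings mark calls and dotted lines the fold threshold. Ringed points are Myocd at -3.15 in male Control and at -1.58 and -1.37 in female and male Cav1-KO; female labelled Cav1-RC lies below 0 for all 10 genes.

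The oxygen effect was compared between the sexes and between genotypes by the difference of the effects. Female minus male gave 0 of the 10 genes and 0% of all genes called in Control, 0% in Cav1-KO and 0% in labelled Cav1-RC, while 3271, 1450 and 1059 genes had an unadjusted p under 0.05 in the same edgeR fits. This comparison holds the libraries with discordant or mixed sex-linked genes, 1 hypoxic male Control, 2 of 3 normoxic male labelled Cav1-RC and 1 hypoxic female Cav1-KO, and without them 0 of the 10 genes were called in each genotype. For Myocd in Control the effects of females and males differed by 3.09 ± 1.23 (adjusted p = 0.282, edgeR), and without replicate 1 of the hypoxic female Controls, a listed mouse, the adjusted p was 0.0455 and Myocd was called. Cav1-KO minus Control gave 0 of the 10 genes beside 8.46% of all genes, and Mylk had the lowest adjusted p (-0.44 ± 0.15, adjusted p = 0.0434). By the adjusted p, 0 members were lower with DESeq2 size factors, with no filter on low counts, with the list term or without the discordant or mixed libraries. With the DESeq2 test, the replicate block and the 34-library fit without the term, 1 member was lower.

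Labelled Cav1-RC minus Cav1-KO gave 3 of the 10 genes, beside 17% of all genes. The effect of hypoxia was lower in labelled Cav1-RC for Cnn1 by -1.38 ± 0.25 (adjusted p = 0.000533, edgeR) and for Actg2 by -1.12 ± 0.28 (adjusted p = 0.00416), and higher for Myocd by 1.11 ± 0.43 (adjusted p = 0.0465). By the adjusted p alone 5 of the 10 passed, with Acta2 (-0.69) and Smtn (-0.51), against 42.8% of all genes. Cnn1 in hypoxia ran from 10.2 to 12.5 FPKM over 6 labelled Cav1-RC lungs, below every one of the 6 Cav1-KO lungs at 14.4 to 34.2. Every hypoxic Cav1-KO mouse was listed and no hypoxic labelled Cav1-RC mouse was, and with the list term Cnn1 gave -0.33 (adjusted p = 0.78), Actg2 -0.29 (0.837) and Myocd -1.85 (0.318). Myocd was called in 7 of the 22 fits that left out 1 library, Actg2 in 19 and Cnn1 in 22, and without the listed normoxic female labelled Cav1-RC mouse Cnn1 was the 1 gene called.

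The next question was whether loss of caveolin-1 changed the contractile genes at a given sex and oxygen level. Acta2 was lower in every Cav1-KO lung than in every Control lung of the same sex and oxygen level in 4 of 4 strata, and so was Myh11. In normoxic females Acta2 was 69.8 and 65.3 FPKM in Cav1-KO against 179.9, 98.9 and 104 in Control, and in normoxic males 71.8, 69.6 and 75.5 against 80.2, 145 and 155. In hypoxic females it was 92.5, 85.9 and 121 against 159, 145 and 135, and in hypoxic males 64.1, 133 and 75.9 against 187, 155 and 215. Non-overlap in the lower direction was found for 7, 3, 5 and 3 of the 10 genes in these strata, against 15.7%, 15.4%, 15.3% and 12.2% of all genes. In the higher direction it was found for 0, 0, 1 and 1 of the 10. The share of all genes lower without overlap in all 4 strata was not counted.

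None of the 10 genes was called in any of the 4 strata. The background was 0.122% of genes in normoxic females, 5% in normoxic males, 0.768% in hypoxic females and 0.929% in hypoxic males. The median log2 difference of the 10 genes was -0.45, -0.40, -0.51 and -0.40 in the same order, against -0.02, -0.01, 0.02 and 0.00 over all genes, and 8 or 9 of the 10 lay below 0 each time. In normoxic males, where no mouse was listed, Myh11 was lower by -0.51 ± 0.11 (adjusted p = 0.0258, edgeR) and Lmod1 by -0.64 ± 0.15 (adjusted p = 0.0342), so 2 of the 10 genes passed by the adjusted p alone, against 6.52% of all genes in the lower direction. Acta2 gave -0.81 ± 0.22 (adjusted p = 0.0516) there and -1.04 ± 0.27 (adjusted p = 0.0972) in hypoxic males, where every mouse of both genotypes was listed.

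The 4 strata were then averaged, in a comparison added after the data were seen. Acta2 was lower in Cav1-KO by -0.82 ± 0.14 on the log2 scale (adjusted p = 0.000483, edgeR), to 0.565 of the Control level. Myh11 was lower by -0.65 ± 0.11 (adjusted p = 0.000294), Tagln by -0.67 ± 0.18, and Cnn1 and Actg2 by -0.59 ± 0.15 and -0.59 ± 0.16. Lmod1 (-0.48), Des (-0.34) and Mylk (-0.34) completed 8 of the 10 genes that passed by the adjusted p alone, against 8.89% of all genes in the lower direction. No member exceeded the fold threshold, beside 3.29% of all genes called.

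Smtn and Myocd lay on the other side of 0. Smtn was 18.3 to 25.4 FPKM over 11 Cav1-KO lungs and 12.7 to 21.9 over 12 Control lungs, with a log2 difference of 0.23 ± 0.08 (adjusted p = 0.0501), and Myocd gave 0.25 ± 0.36 (adjusted p = 0.716). With the list term the 8 lower genes each had an adjusted p under 0.05 as well, from -0.30 for Mylk to -0.86 for Acta2, and Smtn was higher by 0.23 (adjusted p = 0.026). Without the 4 libraries whose sex-linked genes went against the label or were mixed, 7 genes passed, Des having an adjusted p of 0.0633. The share of all genes that passed was not counted for these fits. The list term rests on female groups alone, none of them Cav1-KO.

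Genes that work beside the 10 in the contractile apparatus were counted in the same averaged comparison. Of 25 partners, among them the light chain Myl9, tropomyosins and caldesmon, 0 were called between Cav1-KO and Control in the averaged comparison, with 9 differences above 0 and 16 below and a median of -0.13. The lowest adjusted p among them belonged to Kcnmb1, the beta subunit of the smooth muscle calcium-activated potassium channel (-0.73 ± 0.15, adjusted p = 0.00264, edgeR), and Ppp1r14a, an inhibitor of myosin phosphatase (-0.50 ± 0.11, adjusted p = 0.00573), both below the fold threshold. Of 20 regulators of the smooth muscle program 0 were called, with a median of 0.08, and Srf, the partner of Myocd, gave -0.30 ± 0.11 (adjusted p = 0.0719). Of 12 pericyte markers 0 were called (median 0.06) and of 14 fibroblast markers 0 (median -0.06), while the 10 contractile genes had a median of -0.54. Among 20 cardiac genes 1 was higher, the myosin light chain Myl3 (1.17 ± 0.33, adjusted p = 0.0196, edgeR), with a median of 0.15. Of 10 endothelial markers 0 were called (median 0.05), and of 6 tested of 10 skeletal muscle markers 0 (median -0.20). Of 7 lung epithelial markers 0 were called but 7 lay below 0, with a median of -0.34, between those of the other lists and of the contractile genes. Their summed level ran from 40843 to 48782 FPKM in normoxic Cav1-KO and from 54761 to 144729 in normoxic Control, and in hypoxia from 90522 to 128306 and from 76474 to 138127. The part of these markers in the lower contractile genes was not tested. Of 19 paralogs of the 10 genes 1 was lower, the smoothelin-like Smtnl1 (-1.30 ± 0.39, adjusted p = 0.0299), with a median of -0.05.

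**Figure D4:**
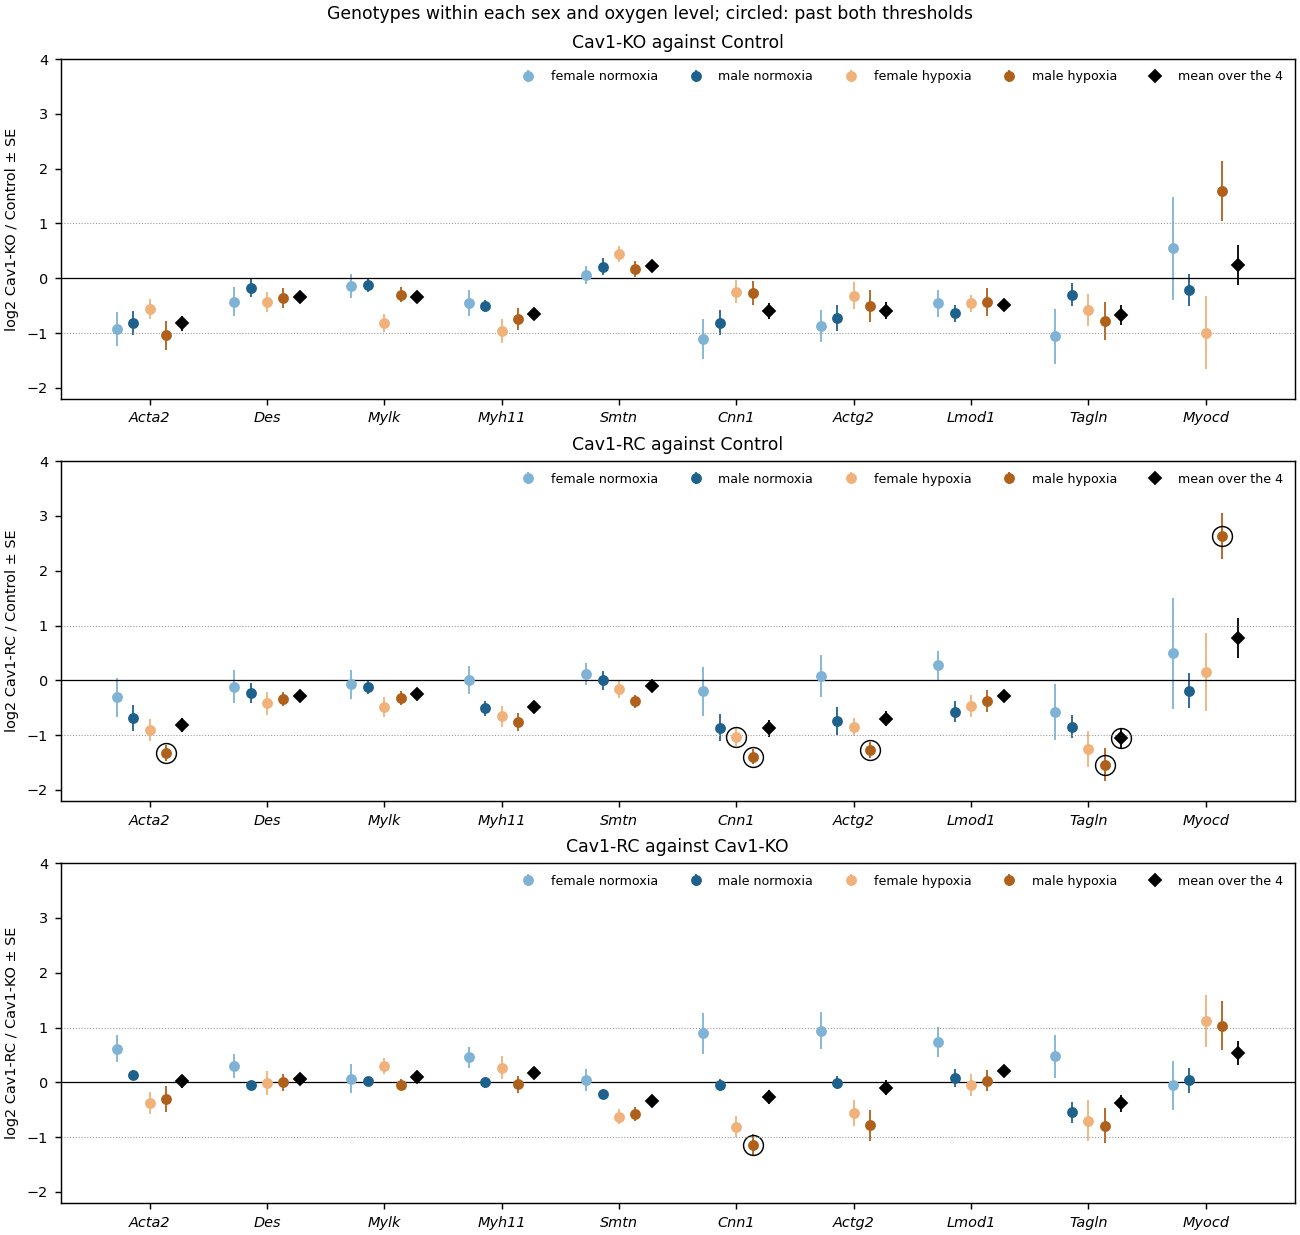
Log2 difference between genotypes (± SE, edgeR) in each sex and oxygen level and averaged over the 4 strata (black), for Cav1-KO against Control, labelled Cav1-RC against Control and labelled Cav1-RC against Cav1-KO; black rings mark calls and dotted lines the fold threshold. Every gene but Smtn and Myocd lies below 0 in all 4 strata of the upper panel, and most rings are in hypoxic males of the middle panel.

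Lungs labelled Cav1-RC were compared with Control to see whether the endothelial copy went with Control levels. In hypoxic males 5 of the 10 genes were called, beside 9.9% of all genes. Acta2 was 86.0, 68.6 and 69.3 FPKM in labelled Cav1-RC and 187, 155 and 215 in Control, so it fell by 1.33 ± 0.15 on the log2 scale (adjusted p = 0.000753, edgeR). Cnn1 was 12.5, 11.5 and 10.2 against 27.9, 25.7 and 35.4 (-1.39 ± 0.14, adjusted p = 0.000515), and Actg2 was 11.5, 8.97 and 10.2 against 22.7, 21.9 and 28.6 (-1.27 ± 0.14, adjusted p = 0.000781). The ranges of these genes lay apart, as for 25.2% of all genes in the lower direction.

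Tagln and Myocd were the other called genes in hypoxic males. Tagln was 1.11, 1.56 and 1.40 against 4.60, 2.45 and 4.60 FPKM (-1.54 ± 0.30, adjusted p = 0.00523, edgeR). Myocd was higher, at 0.515, 0.296 and 0.293 against 0.0485, 0.0843 and 0.0477 (2.64 ± 0.42, adjusted p = 0.00239). The summed cardiac markers ran from 527 to 565 FPKM in these lungs against 116 to 146 in Control, and 19 of 20 cardiac genes were called higher. Each of the 5 calls held in 6 of 6 fits that left out 1 library. All 3 Control mice and no labelled Cav1-RC mouse were listed, so the list and the genotype cannot be told apart, and with the list term none of the 5 was called (Cnn1 adjusted p = 0.404). The log2 differences with the term were -0.81 for Acta2, -0.86 for Tagln, -0.60 for Cnn1, -0.65 for Actg2 and 0.26 for Myocd, and the median of the 10 genes was -0.63.

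In hypoxic females Cnn1 was the gene called, beside 0.832% of all genes. It was 10.78, 10.36 and 11.97 FPKM in labelled Cav1-RC and 26.7, 20.6 and 20.3 in Control (-1.03 ± 0.17, adjusted p = 0.0487, edgeR). Without the listed Control mouse the difference was -0.86 (adjusted p = 0.0286), under the fold threshold, and the call was lost in 6 of 6 fits that left out 1 library. With the list term Cnn1 gave -0.78 (adjusted p = 0.0378) and Tagln, at -1.04 (adjusted p = 0.0352), was called in its place. Of the 10 genes 8 were lower without overlap, against 6.79% of all genes. In normoxic females 0 of the 10 genes were called (0.137% of all genes), and in normoxic males 0 (2.45% of all genes), at median differences of -0.03 and -0.54. In normoxic males, where no mouse was listed, Tagln was 1.16, 1.10 and 1.20 FPKM against 2.00, 2.41 and 1.82 (-0.85 ± 0.21, adjusted p = 0.0656).

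Averaged over the 4 strata, Tagln was called lower in labelled Cav1-RC than in Control (-1.06 ± 0.18, adjusted p = 0.000464, edgeR), beside 3.37% of all genes called. With the list term it was -0.83, with an adjusted p of 0.00163 but under the fold threshold, and it was called in 21 of 23 fits that left out 1 library, those without normoxic female Control replicate 1 or labelled Cav1-RC replicate 2 being the exceptions. Acta2 (-0.81 ± 0.13), Cnn1 (-0.88 ± 0.15), Actg2 (-0.70 ± 0.14) and Myh11 (-0.49 ± 0.10) also passed by the adjusted p alone, which made 5 of 10 genes against 4.32% of all genes in the lower direction. Both averages share the Control libraries: Acta2 differed from Control by -0.82 in Cav1-KO and by -0.81 in labelled Cav1-RC, and Myh11 by -0.65 and -0.49.

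Labelled Cav1-RC and Cav1-KO were compared directly to ask what the endothelial copy went with. Averaged over the 4 strata 0 of the 10 genes were called, beside 5.83% of all genes. Acta2 differed by 0.02 ± 0.12 (adjusted p = 0.906, edgeR), and Myh11 by 0.18 ± 0.09 (adjusted p = 0.149). Smtn was the 1 gene of 10 that passed by the adjusted p alone, against 30.8% of all genes, at -0.34 ± 0.07 (adjusted p = 0.00109). It was 13.6 to 22.1 FPKM over 11 labelled Cav1-RC lungs and 18.3 to 25.4 over 11 Cav1-KO lungs, and with the list term it gave -0.30 (adjusted p = 0.0223).

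Within strata only hypoxic males gave a call between labelled Cav1-RC and Cav1-KO. Cnn1 was 12.5, 11.5 and 10.2 FPKM against 22.3, 34.2 and 18.5 (-1.14 ± 0.21, adjusted p = 0.00275, edgeR), where 14.8% of all genes were called. The list holds all of the Cav1-KO mice of this stratum and cannot be told apart from the genotype, and with its term Cnn1 gave -0.33 (adjusted p = 0.599). In hypoxic females 0 of the 10 genes were called (8.98% of all genes), with Cnn1 at -0.81 ± 0.20 (adjusted p = 0.0234) and Smtn at -0.63 ± 0.13 (adjusted p = 0.0156). Here too every Cav1-KO mouse and no labelled Cav1-RC mouse was listed, and with the list term these were 0.00 (adjusted p = 0.998) and -0.51 (adjusted p = 0.131). In normoxic males 0 were called (3.59% of all genes), and the differences of Acta2, Myh11, Cnn1, Mylk and Actg2 lay between -0.05 and 0.13. Tagln (-0.55 ± 0.20, adjusted p = 0.104, edgeR) and Smtn (-0.21 ± 0.09, adjusted p = 0.173) were lower there without overlap, 2 of 10 members against 15.5% of all genes. In normoxic females 0 were called (0.1% of all genes), with Actg2 at 0.94 ± 0.34 (adjusted p = 0.52). Of the 10 differences 9 lay above 0, with a median of 0.46, and 7 of 10 genes were higher without overlap against 19.9% of all genes, in groups of 2 libraries, with 1 of the 2 labelled Cav1-RC mice listed.

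The 10 genes did not vary as 1 block across the libraries. Cnn1 and Actg2 had a Pearson's r of 0.95 over the 34 libraries (log2 CPM), Acta2 and Actg2 of 0.90, Acta2 and Cnn1 of 0.86 and Acta2 and Des of 0.83. Mylk had an r of 0.26 with Acta2 and 0.12 with Cnn1, and Smtn of 0.16 and 0.39. Myocd had a negative r with 8 of the other 9 genes, from -0.20 with Myh11 to -0.46 with Acta2, -0.50 with Cnn1 and -0.60 with Tagln, and a positive one with Mylk (0.39). Once group means were removed, Acta2 and Actg2 had an r of 0.91 and Cnn1 and Actg2 of 0.92, while Myocd had 0.68 with Mylk, -0.11 with Acta2 and 0.15 with Myh11. These are descriptions, as the points share library, depth and, in part, the blot list.

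**Figure D5:**
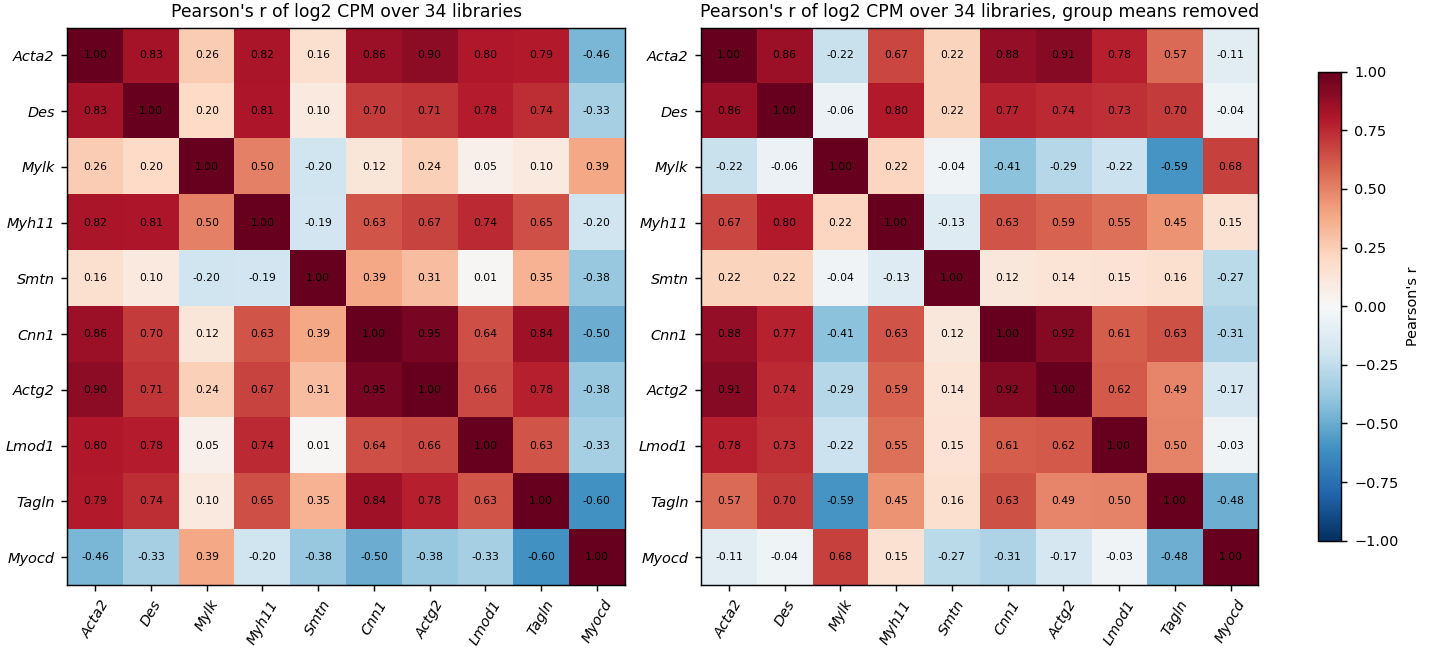
Pearson's r between the 10 genes (log2 CPM) over 34 libraries, left as measured and right after removal of the 12 group means. Cnn1 and Actg2 form the closest pair on both sides (0.95 and 0.92), and Myocd is negative with Acta2, Cnn1 and Tagln on the left and reaches 0.68 with Mylk on the right.

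Among 16019 genes with a mean of at least 1 CPM, Prdm6 followed the mean of the 10 genes most closely, with an r of 0.82 over 34 libraries. After removal of group means its r was 0.64, below Scube3 (0.77), Echdc3 (0.70) and 1110051M20Rik (0.66) among the 10 genes chosen by the first measure. Prdm6 encodes a PR domain repressor of smooth muscle cells. The genes that came next were Telo2 (0.81), 1110051M20Rik (0.79), Rps4l (0.78), Scube3 (0.77), 2310061I04Rik (0.77), Gstm1 (0.77), Vars2 (0.76), Traf7 (0.76) and Echdc3 (0.74). In normoxia Prdm6 ran from 7.07 to 16.5 FPKM over 6 Control, from 7.45 to 8.98 over 5 Cav1-KO and from 6.71 to 11.2 over 5 labelled Cav1-RC lungs. In hypoxia it ran from 11.1 to 13.2, from 8.78 to 12.3 and from 5.96 to 7.64 over 6 lungs each, so labelled Cav1-RC lay below both other genotypes there. In hypoxic females and males 21.7% and 26.4% of all genes were likewise lower than in Cav1-KO, and 6.79% and 25.2% than in Control. Every hypoxic Cav1-KO and male Control mouse was listed and no hypoxic labelled Cav1-RC mouse was. Prdm6 was picked because it follows the 10 genes, so its pattern is no separate observation.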

How the data were processed

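Whole-lung poly(A) libraries were directional and paired-end. The counts deposited by the authors were whole numbers per gene made with HISAT2 2.0.5 (mm10) and featureCounts 1.5.0-p3, and the deposited FPKM divided them by gene length and library depth. Fold changes and p-values were computed here from the counts, levels were read from the FPKM. Of 35 libraries, 34 had a group in the labels. Genes passing filterByExpr were scaled by TMM and tested with edgeR 4.0.16 (R 4.3.3) in a quasi-likelihood fit of the groups compared. A call needed an absolute log2 fold change over 1 and a Benjamini-Hochberg adjusted p under 0.05. Shares of all genes called or passing are given for the main fits only, so counts of members in the other fits have no background. Alternatives were DESeq2 1.42.0, its size factors, no filter on low counts, no fold threshold, 1 fit over 34 libraries with and without a term for the western blot list, a replicate block, and leaving out each library. The genotype averages over sex and oxygen, and the fits without listed libraries or the 4 with discordant or mixed sex-linked genes, were added after the data were seen. The 10 genes and the 9 other lists were chosen with earlier results of these data known. All 10 genes passed the filter in every comparison. The text names all 10 genes, Cav1, up to 3 genes of each other list with the lowest adjusted p, and the 10 genes most alike in pattern. The scripts were tested on simulated counts. Nothing in the labels says whether libraries of a group came from separate cages or days, and p-values measure the spread between these mice. Over 49 pairs of samples with the same replicate number in 18 comparisons, the correlation of deviations ran from -0.17 to 0.56. Every pair exceeded 0.1 in 1 comparison, normoxic female labelled Cav1-RC against Control, which had 2 pairs (0.56 and 0.19). For hypoxia against normoxia in female Control it was 0.42, 0.06 and 0.41 for replicates 1, 2 and 3. In hypoxic female labelled Cav1-RC against Control it was 0.47, -0.17 and 0.46, so some female samples of the same number did deviate together.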

Additional observations from a re-analysis of the deposited data

Results flagged for a closer look

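For 3 genes the effect of hypoxia differed between lungs labelled Cav1-RC and Cav1-KO lungs by the test of the difference itself (edgeR, both sexes, labelled Cav1-RC minus Cav1-KO), beside 17% of all genes called. For Cnn1 the difference of the log2 effects was -1.38 (adjusted p = 0.000533), with -0.67 in labelled Cav1-RC and 0.71 in Cav1-KO. For Actg2 it was -1.12 (adjusted p = 0.00416), with -0.70 and 0.42. For Myocd it was 1.11 (adjusted p = 0.0465), with -0.37 and -1.47, a call that was made in 7 of the 22 fits without 1 library and lost with the replicate block and in the 34-library fit. The 6 hypoxic Cav1-KO mice were on the blot list and the 6 hypoxic labelled Cav1-RC mice were not, so the list and the difference cannot be told apart, and with a term for the list none of the 3 was called and Myocd turned to -1.85.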

How the results depend on the processing

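The numbers of the 10 genes called under other settings were these. With the blot list term in 1 fit over 34 libraries the count was 0 for hypoxia in male Control, in female, male and both sexes of Cav1-KO (1 each otherwise), in labelled Cav1-RC minus Cav1-KO (3 otherwise), in hypoxic male labelled Cav1-RC against Cav1-KO (1) and against Control (5) and in the averaged labelled Cav1-RC against Control (1), and it was 1 for hypoxic male Cav1-KO against Control (0). In that fit Myocd turned direction, to 0.78 in female, 1.01 in male and 0.89 in both sexes of Cav1-KO and to -1.85 in labelled Cav1-RC minus Cav1-KO. The 34-library fit without the term gave 0 in female and male Cav1-KO hypoxia, 1 in both sexes of Control and in hypoxic male Cav1-KO against Control, 2 in hypoxic female labelled Cav1-RC against Control, and 2 in labelled Cav1-RC minus Cav1-KO, where Myocd was no longer called (adjusted p = 0.196). Without the fold threshold the counts were 3 in female and male and 6 in both sexes of Cav1-KO hypoxia, 1 in both sexes of labelled Cav1-RC and in Cav1-KO minus Control, 5 in labelled Cav1-RC minus Cav1-KO, 2 in normoxic male Cav1-KO against Control, 7 in hypoxic male labelled Cav1-RC against Control, 2 and 3 in hypoxic female and male labelled Cav1-RC against Cav1-KO, and 8, 1 and 5 in the averages of Cav1-KO against Control, labelled Cav1-RC against Cav1-KO and against Control. The shares of all genes under the same rule were, in that order, 38.2%, 55.1%, 61.7%, 2.17%, 20.2%, 42.8%, 11.4%, 37%, 20.8%, 44.5%, 15.4%, 30.8% and 8.84%, so several of these counts lie near or under the background. With no filter on low counts they were 2 in female labelled Cav1-RC hypoxia and in hypoxic male labelled Cav1-RC against Cav1-KO, and 1 in normoxic female and hypoxic male Cav1-KO against Control. DESeq2 gave 1 in hypoxic male Cav1-KO against Control and 2 in hypoxic female labelled Cav1-RC against Control. The replicate block gave 1 in normoxic female Cav1-KO against Control and 0 in hypoxic female labelled Cav1-RC against Control. It ended the call of Myocd in labelled Cav1-RC minus Cav1-KO (adjusted p = 0.0505) and changed no other call. The sample titles do not say whether equal numbers mark pairs. Leaving out listed mice gave 0 in hypoxic female labelled Cav1-RC against Control, and leaving out the 4 libraries with discordant or mixed sex-linked genes gave 2 in male Control hypoxia and 2 in labelled Cav1-RC minus Cav1-KO, without Myocd (adjusted p = 0.0963). The cause was not tested for any of these.

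With 1 library left out the count ran from 0 to 2 for male Control hypoxia, normoxic male and hypoxic female Cav1-KO against Control, normoxic female labelled Cav1-RC against Cav1-KO, female minus male labelled Cav1-RC and the averaged labelled Cav1-RC against Control, from 0 to 1 for female and male Cav1-KO hypoxia, both sexes of Control, female minus male Control, hypoxic male Cav1-KO against Control and normoxic male labelled Cav1-RC against Control, from 1 to 2 for hypoxic male labelled Cav1-RC against Cav1-KO and from 1 to 3 for labelled Cav1-RC minus Cav1-KO, and it was 0 throughout for hypoxic female labelled Cav1-RC against Control. The fall of Myocd was no longer called in male Control without hypoxic replicate 3 (adjusted p = 0.0513, edgeR), was called in 3 of 5 such fits in female Cav1-KO (adjusted p = 0.108 without normoxic replicate 2) and in 4 of 6 in male Cav1-KO (0.0659 without normoxic replicate 3). With 3 to 111 counts per library, Myocd is the member that depth limits most.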

Other observations

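Among the pericyte markers, Rgs5, a regulator of G protein signalling in mural cells, was higher in hypoxia in all 3 genotypes. It ran from 1.74 to 4.69 FPKM in 6 normoxic and from 10.71 to 26.97 in 6 hypoxic Control lungs (both sexes, log2 change 2.60 ± 0.24, adjusted p = 0.00027, edgeR). In Cav1-KO it ran from 2.31 to 5.51 and from 14.5 to 51.7 (2.87 ± 0.23, adjusted p = 1.55e-06), and in labelled Cav1-RC from 1.44 to 2.23 and from 7.36 to 14.9 (2.63 ± 0.17, adjusted p = 2.37e-05). No hypoxic lung overlapped a normoxic one of its genotype. The list did not move as Rgs5 did: of 12 pericyte markers 1 was called higher in Control, 2 in Cav1-KO and 1 in labelled Cav1-RC and 0 lower, with medians of 0.28, -0.12 and -0.23, beside 0.846%, 17.6% and 1.22% of all genes called. In Cav1-KO 8 of the 12 and in labelled Cav1-RC 9 of the 12 differences lay below 0.

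The library that the labels place in no group is marked there as uncertain in sex, genotype and treatment, with normoxic female Cav1-KO named as a possibility, and its animal number is on the blot list, where it is not counted among the 12. It gave 104 FPKM for Acta2, 44.9 for Des, 27.8 for Smtn, 24.9 for Cnn1, 20.4 for Myh11, 20.3 for Mylk, 17.8 for Actg2, 2.83 for Lmod1, 2.53 for Tagln and 0.0684 for Myocd, the last on 13 counts.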
